A study of Arabidopsis thaliana with 6 samples.

Results

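The endomembrane trafficking genes described here are the VPS, SEC, PRA1, EXO70, SYP, VAMP and RAB genes of Arabidopsis thaliana, found by the start of the gene symbol in the platform annotation. The rule found 30 genes, each with 1 probe set, among 13350 genes with a symbol of their own and 22746 tested probe sets. They comprise 10 VPS, 10 SEC and 9 PRA1 genes and the Rab GTPase RAB6A. No EXO70, SYP or VAMP gene has a probe set named alone under this annotation, and 3 further probe sets that match these names cover several genes and were not used. All 30 genes were matched to a locus of the RefSeq gene table.

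Transcript levels were measured with Affymetrix ATH1 arrays in cells of seedling roots sorted by J2632, an enhancer trap line that marks the lateral root cap, the outer cell layer around the root tip. All seedlings were of ecotype C24, were grown for 5 days and carried J2632-UAS::ARR1ΔDDK-GR. In this construct the enhancer trap drives ARR1, which switches on cytokinin response genes, without its DDK domain and fused to the hormone-binding part of the glucocorticoid receptor, which keeps the protein inactive until dexamethasone is given. Seedlings were left untreated or given dexamethasone for 1 h or 4 h, with 2 arrays of separate biological replicates for each of these 3 groups. The construct was present in every sample, so effects of dexamethasone itself, of the sort and of the time that passed cannot be told apart from those of the induced protein.

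Proteins that leave the endoplasmic reticulum travel in vesicles through the Golgi to the plasma membrane or the vacuole, and membrane proteins return by endocytosis. Rab GTPases give each compartment its identity, tethers such as the exocyst hold a vesicle at its target, and SNARE proteins fuse the membranes. ESCRT complexes sort membrane proteins, auxin carriers among them in Arabidopsis, into the inner vesicles of multivesicular bodies on the way to the vacuole. Root cap cells are strongly secretory and release polysaccharides and proteins at the root surface.

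Most of the trafficking genes were expressed in the sorted cells. Background on each array was set at the 95th percentile of 27 Bacillus subtilis control probe sets, and 22 of the 30 genes exceeded it on all 6 arrays (73.3%, against 51.2% of all probe sets). A further 6 exceeded it on 1 to 5 arrays, and VPS24.2 and SECA2 on none. All probe sets include 8730 that the annotation does not list, whereas each of the 30 genes has a symbol, so these shares are not of like sets. Between 23 and 26 of the 30 genes were above background on any array, and the fewest, 23, on replicate 2 of 1 h, which also had the highest background. Levels are given below as quantile-normalized log2(intensity + 16), on which background lay between 5.57 and 5.93. Each probe set binds with its own strength, so levels can be set against each other between arrays but not between genes. Because cells were measured in bulk, fewer cells of a type and less RNA per cell could not be told apart.

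**Figure D1:**
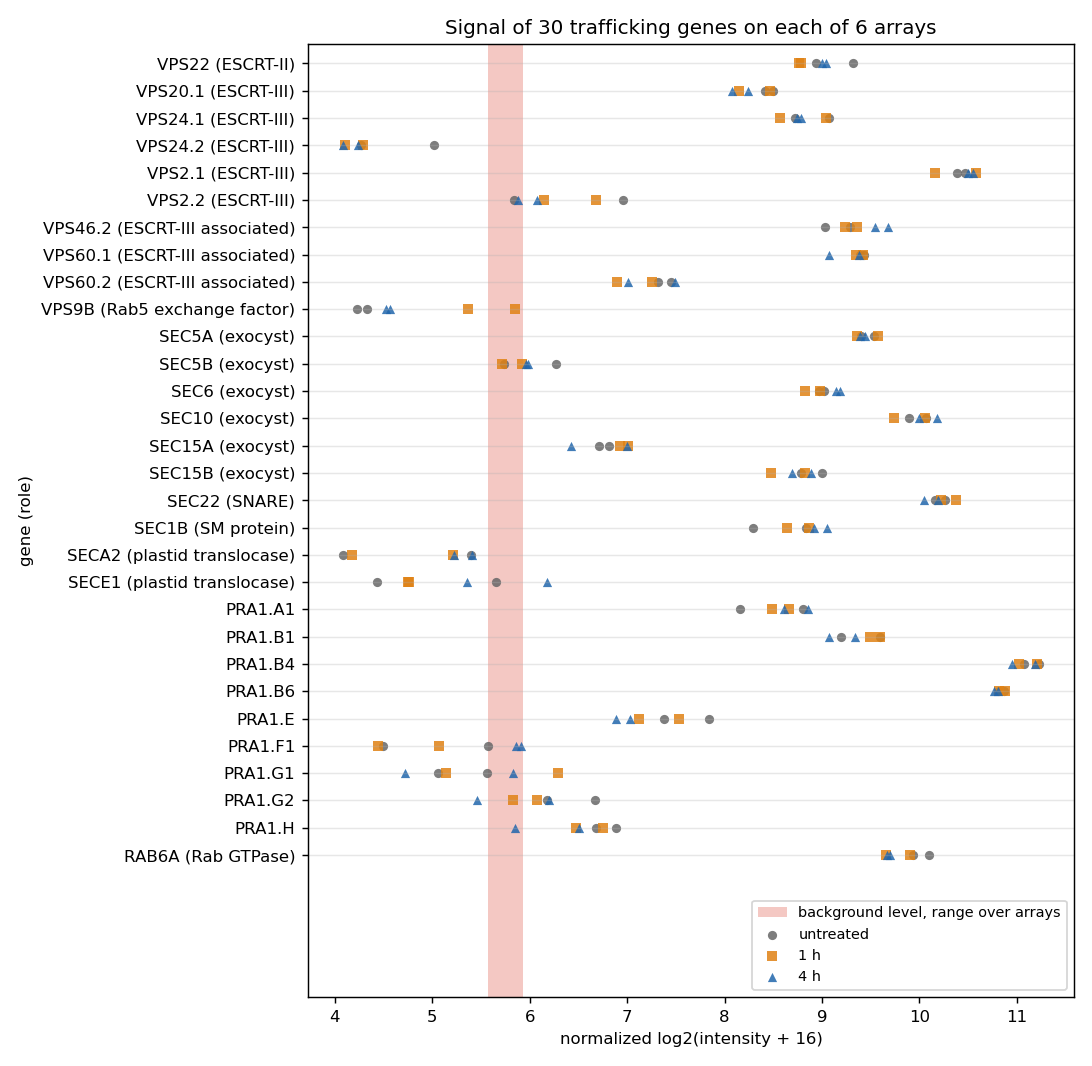
Level of each of the 30 trafficking genes (rows) on the 6 arrays, as normalized log2(intensity + 16), with circles for untreated, squares for 1 h and triangles for 4 h of dexamethasone; the shaded band spans the background level over the arrays (5.57 to 5.93). For most genes the points of the 3 groups lie close together, and VPS24.2, VPS9B, SECA2, SECE1, PRA1.F1 and PRA1.G1 lie at or left of the band on most arrays.

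No trafficking gene passed the test in any of the 3 comparisons. The limma fit over all 22746 probe sets, at an adjusted p under 0.05, called 0 of the 30 genes at 1 h against untreated, where it called 0% of all probe sets. It called 0 of 30 at 4 h against untreated (0.0044% of all probe sets) and 0 of 30 at 4 h against 1 h (0.022%). The smallest adjusted p among the 30 was 0.759, 0.550 and 0.339 in these comparisons. At an unadjusted p under 0.05 there was 1 gene at 1 h (5.78% of all probe sets), 1 at 4 h (9.08%) and 2 between 4 h and 1 h (9.24%). The arrays of the 2 groups did not overlap for 6 genes at 1 h against untreated (2 higher and 4 lower), which is 20.0% of the 30, against 31.1% of all probe sets (15.5% higher and 15.7% lower). For 4 h against untreated there were 13 such genes (6 higher and 7 lower), or 43.3%, against 40.6% of all probe sets (20% higher and 20.6% lower). Between 4 h and 1 h there were 14 (8 higher and 6 lower), or 46.7%, against 43.8% (21.8% higher and 22.1% lower). At 1 h the share among the trafficking genes was thus below that of all probe sets, and in both other comparisons it was near it.

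More of the trafficking genes were lower than higher after dexamethasone, but by small amounts. At 1 h, 11 were higher and 19 lower, with a median log2 difference of -0.07, and at 4 h, 10 were higher and 20 lower, also with a median of -0.07. Of all probe sets, 49.6% were higher at 1 h and 49% at 4 h, with medians of 0.00 and -0.01. Both comparisons use the same untreated arrays. Without replicate 2 of 1 h, the median at 1 h was 0.016, with 16 genes higher and 14 lower. At 4 h against untreated, 14 were higher and 16 lower without untreated replicate 1. There were 13 higher and 17 lower without untreated replicate 2, and likewise without replicate 1 of 4 h. With each array centred on its median in place of quantile normalization, 4 were higher and 26 lower at 1 h, with medians of -0.21 for the trafficking genes and -0.10 for all probe sets. Between 4 h and 1 h, 13 genes were higher and 17 lower at 4 h (median -0.04), where 49.6% of all probe sets were higher. That direction turned with median centring, with 18 higher and 12 lower (median 0.046), and also without replicate 1 of 1 h or replicate 1 of 4 h, each with 16 higher and 14 lower.

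The precision of 2 arrays a group sets what could have been seen. For 24 of the 30 genes the mean over the 6 arrays lay above the mean background level. The 95% interval of the difference (not adjusted for the number of genes) lay inside a 2-fold change in either direction for 23 of these 24 at 1 h, 18 at 4 h and 21 between 4 h and 1 h. These are 95.8%, 75% and 87.5%, against 68.8%, 61.2% and 61.0% of all probe sets with a mean above background. Those probe sets were not matched to the 24 genes in level or in having a symbol, so these shares are not of like sets. The intervals that reached 2-fold were those of PRA1.G2 at 1 h, of PRA1.G2, PRA1.E, PRA1.H, VPS2.2, SEC1B and VPS46.2 at 4 h, and of VPS2.2, PRA1.H and PRA1.E between 4 h and 1 h. Standard errors (SE) of the 30 genes started at 0.21 and had a median of 0.26 on the log2 scale. Calls are adjusted over all 22746 probe sets and these intervals are not. The intervals therefore do not show that a 2-fold change would have been called.

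**Figure D2:**
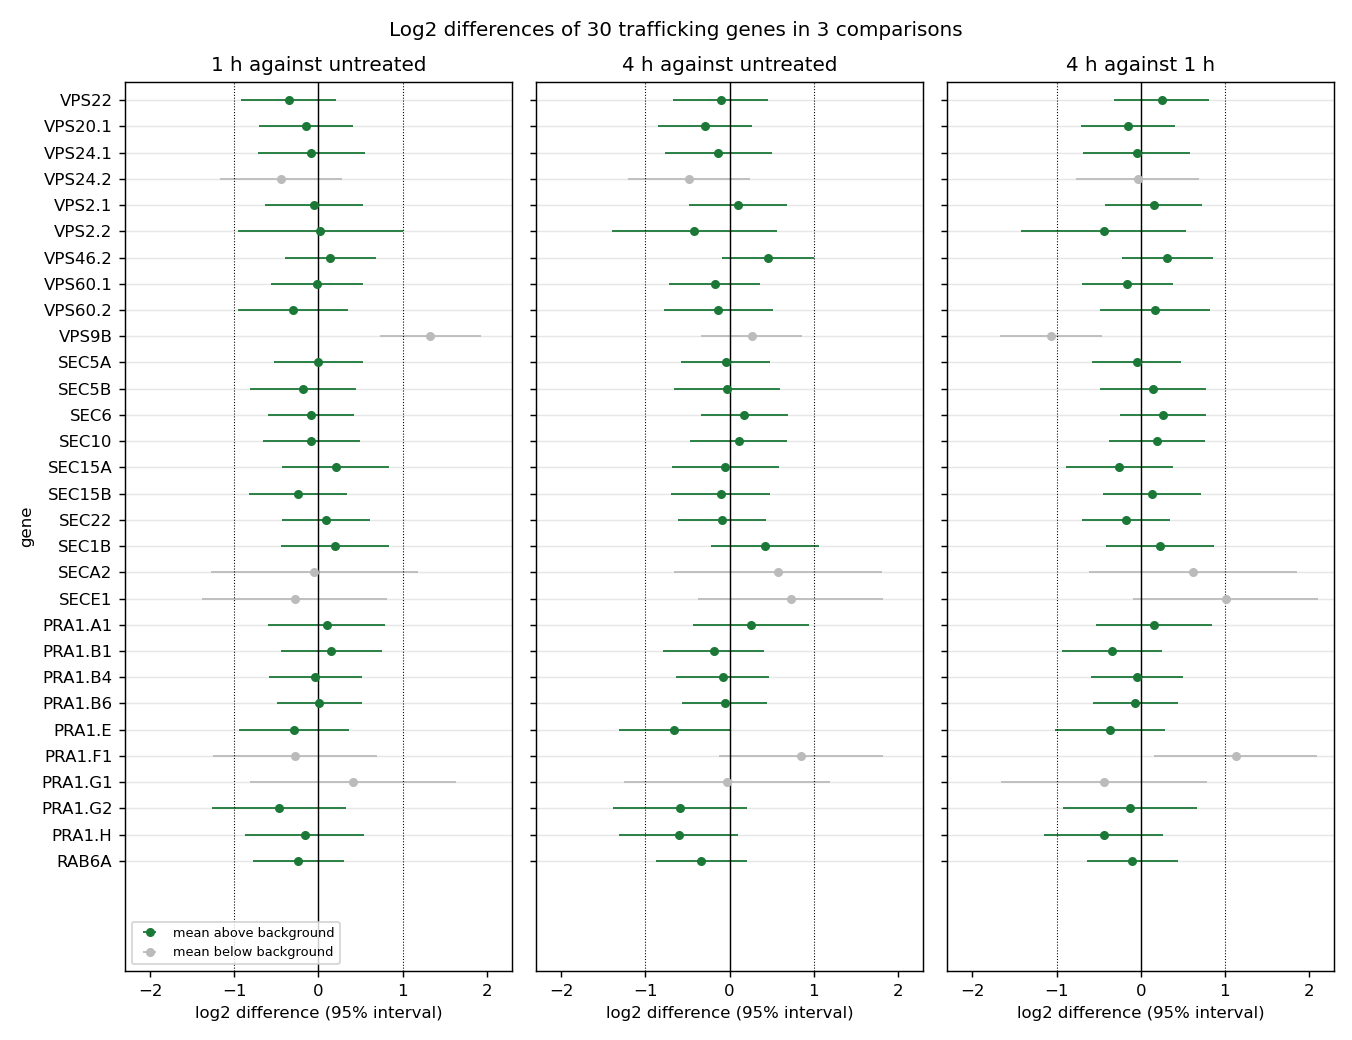
Log2 difference of each of the 30 genes in the 3 comparisons, with 95% intervals from the limma fit (not adjusted for the number of genes); dotted lines mark a 2-fold change, and grey marks genes whose mean lies below background. Of the genes with a mean above background, PRA1.E at 4 h against untreated is the one whose interval stops at 0, and all others cross it.

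Of the 9 ESCRT genes, VPS24.2 alone was not above background on all arrays. ESCRT-II recruits ESCRT-III, whose subunits polymerise on the endosome membrane and pinch vesicles inward. VPS22 (AT4G27040), the ESCRT-II member, measured 9.31 and 8.94 in untreated cells, 8.76 and 8.78 at 1 h, and 9.04 and 9.00 at 4 h. The 1 h arrays were thus the lowest. Its log2 difference was -0.36 at 1 h against untreated (SE 0.23, limma adjusted p = 0.923) and 0.25 at 4 h against 1 h (SE 0.23, limma adjusted p = 0.786). The first was -0.17 without untreated replicate 1 and -0.55 without untreated replicate 2.

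VPS20.1 (AT5G63880), the ESCRT-III subunit that links to ESCRT-II, was at 8.50 and 8.41 in untreated cells, 8.47 and 8.15 at 1 h, and 8.24 and 8.08 at 4 h. The 4 h arrays were below the untreated ones, with a difference of -0.30 (SE 0.23, limma adjusted p = 0.776). VPS24.1 (AT5G22950), which takes part late in assembly of the polymer, varied by 0.50 over the 6 arrays, and the difference between replicates of 1 h (9.04 and 8.57) covered most of that range. VPS2.1 (AT2G06530), another core subunit, read 10.46 and 10.39 untreated, 10.58 and 10.16 at 1 h, and 10.55 and 10.50 at 4 h.

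On these probe sets, detection differed within the VPS24 pair of paralogues but not within the VPS2 pair. Since probe sets bind with unlike strength, this need not mean a difference in transcript level. VPS24.1 exceeded background on 6 of 6 arrays and VPS24.2 (AT3G45000) on 0 of 6, with levels between 4.08 and 5.01. VPS2.1 and VPS2.2 (AT5G44560) were both above background on every array. VPS2.2 was close to it on some, with a deposited intensity of 38.3 against 32.5 on untreated replicate 1. VPS2.2 measured 5.83 and 6.96 untreated, 6.68 and 6.15 at 1 h, and 6.07 and 5.88 at 4 h. The untreated replicates of VPS2.2 thus lay at both ends of its range. Its difference at 4 h against untreated was -0.42 (SE 0.41, limma adjusted p = 0.826), and without untreated replicate 2 it was 0.14. Between 4 h and 1 h it was -0.44 (SE 0.41, limma adjusted p = 0.783), and -0.17 without replicate 1 of 1 h.

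VPS46.2 (AT1G73030), also named CHMP1A, is an ESCRT-III-associated protein that in Arabidopsis takes part in sorting auxin carriers to the vacuole. Its levels were 9.28 and 9.03 in untreated cells, 9.36 and 9.23 at 1 h, and 9.55 and 9.68 at 4 h. Both 4 h arrays stood above the other 4. The difference at 4 h against untreated was 0.46, or 1.37-fold (SE 0.23, 95% interval -0.09 to 1.00), and did not pass (limma adjusted p = 0.622). Over 1 h it was 0.32 (SE 0.23, limma adjusted p = 0.716) and at 1 h against untreated 0.14 (SE 0.23, limma adjusted p = 0.969). With any 1 array left out, the difference at 4 h against untreated stayed between 0.33 and 0.58, and that at 1 h against untreated was 0.015 without untreated replicate 2 and 0.27 without untreated replicate 1.

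VPS60.1 (AT3G10640) and VPS60.2 (AT5G04850) also belong to the ESCRT-III-like proteins. VPS60.1 varied little, between 9.35 and 9.43 on 5 of the arrays and 9.07 on replicate 2 of 4 h. VPS60.2 was at 7.45 and 7.32 untreated, 6.90 and 7.26 at 1 h, and 7.01 and 7.49 at 4 h. At 1 h both arrays lay below the untreated ones, by -0.31 on average (SE 0.27, limma adjusted p = 0.940). This was -0.12 without replicate 1 of 1 h and -0.49 without replicate 2 of 1 h. At 4 h the replicates spanned nearly the whole range. Of the 8 ESCRT-III and associated genes, 6 were lower and 2 higher than untreated at each time, with medians of -0.07 at 1 h and -0.16 at 4 h. The lower ones include VPS24.2, which was below background on all arrays (-0.44 at 1 h and -0.48 at 4 h). Of all probe sets, 49.6% were higher at 1 h and 49% at 4 h.

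The Rab group holds the GTPase RAB6A, the possible Rab exchange factor VPS9B and the PRA1 proteins. RAB6A (AT2G44610, also named RABH1b) belongs to the Rab6 class, which acts at the Golgi. It read 9.93 and 10.10 in untreated cells, 9.65 and 9.90 at 1 h, and 9.70 and 9.66 at 4 h. All 4 dexamethasone arrays lay below both untreated arrays, at 1 h by -0.24 on average (SE 0.22, limma adjusted p = 0.944) and at 4 h by -0.34 (SE 0.22, limma adjusted p = 0.729). Neither difference passed, and the gap at 1 h was smaller than that between its 1 h replicates and was -0.12 without replicate 1 of 1 h and -0.36 without replicate 2. Between 4 h and 1 h the difference was -0.10 (SE 0.22, limma adjusted p = 0.925), and 0.024 without replicate 2 of 1 h.

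VPS9B (AT5G09320) is the paralogue of VPS9A, which loads Rab5-type GTPases with GTP. Its level was 4.23 and 4.33 in untreated cells, 5.85 and 5.37 at 1 h, and 4.56 and 4.52 at 4 h. The 1 h arrays stood above all others, but only replicate 1 of 1 h, at a deposited intensity of 48.2, exceeded its background of 43.2. This was the smallest unadjusted p of the 30 genes at 1 h (0.00143, limma adjusted p = 0.759) and between 4 h and 1 h (0.00450, limma adjusted p = 0.339). No fold is given, since the other groups lay below background and the mean at 1 h did not exceed their background. VPS9B fell outside the rule for named genes and was chosen after its values were seen.

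PRA1 proteins are small membrane proteins that bind prenylated Rab GTPases at the endoplasmic reticulum, Golgi and endosomes. Of the 9 genes, 6 exceeded background on every array. PRA1.B6 (AT5G07110) was the steadiest of the 30 genes with a mean above background: its levels were 10.87 and 10.81 untreated, 10.82 and 10.88 at 1 h, and 10.76 and 10.81 at 4 h, a range of 0.11. PRA1.B4 (AT2G38360) kept within 0.28, from 10.95 to 11.23. Over the 24 genes with a mean above background the range across the 6 arrays had a median of 0.52, against 0.72 for all 13997 probe sets with such a mean. Those were not matched to the 24 genes in level or in having a symbol, so the sets are not alike.

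PRA1.E (AT1G08770) gave the lowest unadjusted p at 4 h against untreated. It measured 7.84 and 7.38 in untreated cells, 7.53 and 7.13 at 1 h, and 6.88 and 7.03 at 4 h. Both 4 h arrays were below every other array, while the 1 h and untreated arrays overlapped. The means were 6.96 ± 0.11 at 4 h and 7.61 ± 0.33 in untreated cells (SD, n = 2 each), a difference of -0.66, or 1.57-fold lower at 4 h (SE 0.27, unadjusted p = 0.0499, limma adjusted p = 0.550). It was -0.29 at 1 h against untreated (SE 0.27, limma adjusted p = 0.945) and -0.37 at 4 h against 1 h (SE 0.27, limma adjusted p = 0.725). With any 1 array left out, the difference at 4 h against untreated lay between -0.88 and -0.42, that at 1 h against untreated between -0.52 (without untreated replicate 2) and -0.05 (without untreated replicate 1), and that at 4 h against 1 h between -0.57 (without replicate 2 of 1 h) and -0.17 (without replicate 1 of 1 h).

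PRA1.H (AT4G27540) was at 6.88 and 6.68 untreated, 6.48 and 6.75 at 1 h, and 6.50 and 5.84 at 4 h. The 4 h arrays lay below the untreated ones but 0.66 apart from each other, so that the difference of -0.61 (SE 0.29, limma adjusted p = 0.613) rested mainly on replicate 2 of 4 h. Without that array it was -0.28. From 1 h the difference was -0.44 (SE 0.29, limma adjusted p = 0.694), and -0.11 without the same array.

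PRA1.G2 (AT5G56230) was close to background, with 6.67 and 6.18 untreated, 5.82 and 6.08 at 1 h, and 5.45 and 6.20 at 4 h. Replicate 1 of 4 h was below background. The differences from untreated were -0.47 at 1 h (SE 0.33, limma adjusted p = 0.924) and -0.59 at 4 h (SE 0.33, limma adjusted p = 0.671). Single arrays moved both: without 1 array the first lay between -0.69 (without untreated replicate 2) and -0.23 (without untreated replicate 1), and the second between -0.97 (without replicate 2 of 4 h) and -0.22 (without replicate 1 of 4 h).

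PRA1.F1 (AT1G17700) was above background on both 4 h arrays and on no other. Its level was 4.49 and 5.58 in untreated cells, 4.45 and 5.07 at 1 h, and 5.91 and 5.86 at 4 h, so the 4 h arrays did not overlap with the rest. Against background, the lower bound of its mean signal at 4 h was 1.18-fold over untreated cells (limma adjusted p = 0.605). Over 1 h the bound was 1.04-fold (limma adjusted p = 0.483). These bounds set the mean at 4 h against the background of each array in the other group, or against the gene's own level there where that was higher. They leave out the spread between arrays, so they do not show a rise of at least that size. The 95% interval of the log2 difference from untreated was -0.12 to 1.83. Without 1 array that difference lay between 0.31 (without untreated replicate 1) and 1.43 (without untreated replicate 2). PRA1.F1 met the condition for named genes through the 4 h group alone. The deposited intensities at 4 h were 43.0 and 42.7, against backgrounds of 33.4 and 31.9.

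The remaining PRA1 genes differed less or lay near background. PRA1.B1 (AT3G56110) read 9.19 and 9.59 untreated, 9.49 and 9.59 at 1 h, and 9.34 and 9.07 at 4 h, with differences of 0.15 at 1 h against untreated (SE 0.25, limma adjusted p = 0.969) and -0.34 at 4 h against 1 h (SE 0.25, limma adjusted p = 0.723). Its 4 h arrays lay below the 1 h arrays, and the untreated arrays overlapped with both groups. Between 4 h and 1 h the difference was -0.21 without replicate 2 of 4 h. PRA1.A1 (AT5G02040) varied between 8.16 and 8.85, and the lowest and the second highest of its values were the untreated replicates. PRA1.G1 (AT1G55640) exceeded background only on replicate 1 of 1 h and replicate 2 of 4 h. At 4 h, 7 of the 9 PRA1 genes were lower and 2 higher than untreated (median -0.08), with PRA1.B6, PRA1.E and PRA1.H not overlapping below and PRA1.F1 above. These 4 are 44.4% of the family, near the 40.6% of all probe sets whose arrays did not overlap in this comparison (20% higher and 20.6% lower). By direction alone, 49% of all probe sets were higher at 4 h. PRA1.G1 among the 7 lower genes and PRA1.F1 among the 2 higher ones had a mean over the arrays below background.

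The exocyst, the tether of secretory vesicles at the plasma membrane, was represented by 6 subunit genes, with small differences between groups. These ranged from -0.24 to 0.20 at 1 h against untreated, from -0.11 to 0.18 at 4 h against untreated and from -0.25 to 0.26 at 4 h against 1 h. SEC5A (AT1G76850) was at 9.40 and 9.53 untreated, 9.57 and 9.36 at 1 h, and 9.39 and 9.44 at 4 h. SEC10 (AT5G12370), for which a near-identical tandem copy has been described in Arabidopsis that these probes may not separate, was at 10.07 and 9.89 untreated, 10.06 and 9.73 at 1 h, and 10.00 and 10.18 at 4 h. For both the groups overlapped.

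SEC6 (AT1G71820) measured 8.97 and 9.02 in untreated cells, 8.98 and 8.83 at 1 h, and 9.15 and 9.19 at 4 h. The 4 h arrays stood above the other 4, by 0.26 over 1 h on average (SE 0.21, limma adjusted p = 0.753). Without any 1 array this difference was 0.19 to 0.34.

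SEC15B (AT4G02350) was at 9.00 and 8.78 untreated, 8.48 and 8.82 at 1 h, and 8.89 and 8.69 at 4 h, with overlapping groups and differences from untreated of -0.24 at 1 h (SE 0.24, limma adjusted p = 0.945) and -0.11 at 4 h (SE 0.24, limma adjusted p = 0.935). The first was -0.073 without replicate 1 of 1 h and the second 0.0036 without untreated replicate 1. Its paralogue SEC15A (AT3G56640) measured 6.71 and 6.81 untreated, 7.00 and 6.92 at 1 h, and 7.00 and 6.42 at 4 h. The 1 h arrays lay above the untreated ones by 0.20 (SE 0.27, limma adjusted p = 0.961), and at 4 h the replicates were 0.58 apart, with a difference of -0.25 from 1 h (SE 0.27, limma adjusted p = 0.813). Of the SEC5 pair, SEC5A exceeded background on 6 of 6 arrays and SEC5B (AT1G21170) on 4, with levels between 5.71 and 6.27. Neither 1 h array of SEC5B exceeded background, which was highest on those arrays.

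SEC22 and SEC1B act at the fusion step. SEC22 (AT1G11890), a SNARE of transport between the endoplasmic reticulum and the Golgi, was at 10.16 and 10.26 untreated, 10.37 and 10.22 at 1 h, and 10.19 and 10.05 at 4 h. SEC1B (AT4G12120), of the Sec1/Munc18 class that assists SNAREs, read 8.83 and 8.29 untreated, 8.87 and 8.64 at 1 h, and 8.92 and 9.05 at 4 h. The 4 h arrays of SEC1B were above all others. Its difference from untreated was 0.42 at 4 h (SE 0.27, limma adjusted p = 0.713) and 0.19 at 1 h (SE 0.27, limma adjusted p = 0.966). The untreated replicates lay 0.54 apart, and without replicate 2 the difference at 4 h was 0.15.

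**Figure D3:**
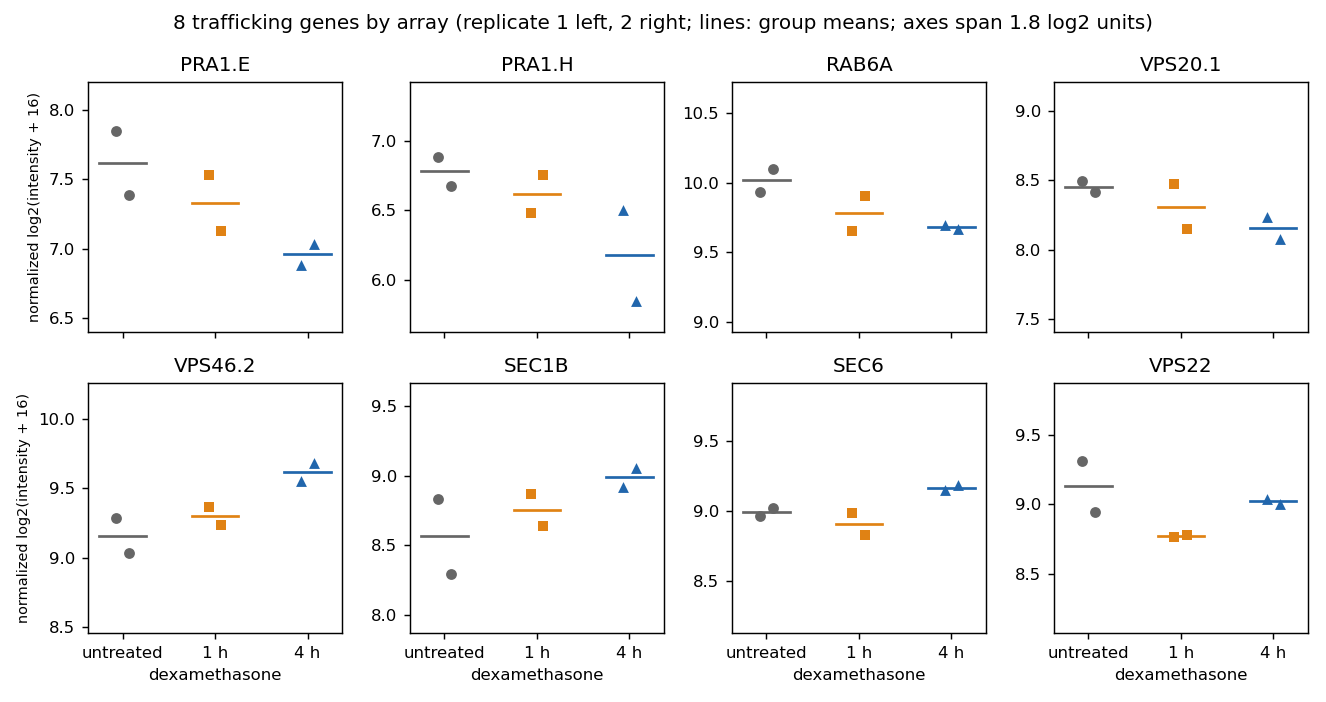
Levels of 8 trafficking genes on each array, as normalized log2(intensity + 16), with a line at each group mean, on vertical axes of equal span. Each of the 8 had groups that did not overlap in at least 1 comparison, so they do not stand for the whole set. Named genes whose groups overlapped throughout, such as SEC15B, are not shown. PRA1.E, PRA1.H, RAB6A and VPS20.1 have both 4 h arrays below both untreated ones, VPS46.2, SEC1B and SEC6 have them above, and VPS22 has its lowest arrays at 1 h.

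The symbols SECA2 (AT1G21650) and SECE1 (AT4G14870) fit the rule but belong to plastid protein translocases and not to vesicle transport. SECA2 exceeded background on no array. SECE1 exceeded it on replicate 1 of 4 h alone, at 6.17, with 5.36 on the other 4 h array. Without these 2 genes the medians of the remaining 28 were -0.07 at 1 h, -0.09 at 4 h and -0.05 at 4 h against 1 h.

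For 0 of the 30 genes the 1 h and 4 h arrays lay on opposite sides of both untreated arrays, against 3.13% of all probe sets. Relative to each gene's mean, the 24 genes with a mean above background had a median of 0.06 and 0.07 on the untreated arrays, 0.07 and -0.05 at 1 h, and -0.02 and -0.01 at 4 h. Replicate 2 of 1 h, the array with the highest background, was thus the lowest. The ratio of 3' to 5' signal of GAPDH, a sign of RNA quality, was 3.11 and 3.41 untreated, 4.65 and 3.26 at 1 h, and 3.15 and 4.32 at 4 h, so it varied within the groups of dexamethasone by more than between the untreated arrays. Its part in the differences was not tested.

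**Figure D4:**
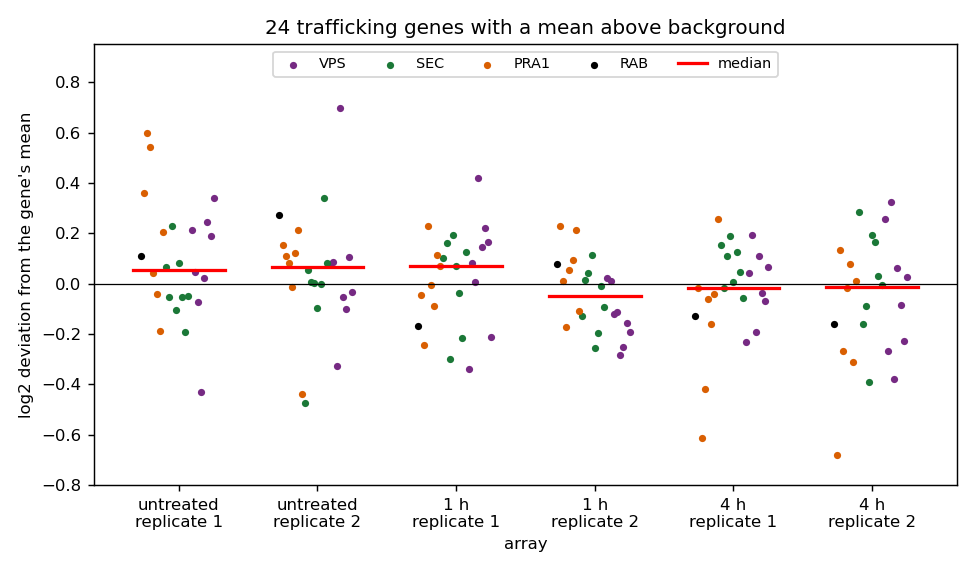
Deviation of 24 trafficking genes with a mean above background from their own mean over the 6 arrays (log2), by array and coloured by family, with the median of each array in red. The medians lie between -0.05 and 0.07, and the largest deviations are those of single PRA1 and VPS genes.

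Of a longer list of further trafficking genes for comparison, 5 were found under a probe set named alone: YKT61, ATYKT62, KEU, EXO84B and ECHIDNA (AT1G09330). The rest of the list was not examined, which does not mean that the array lacks those genes. The listed name CHC1 led to a probe set of another gene, AT5G14170, and was left out. None of the 5 passed in any comparison, with 2 higher and 3 lower at 1 h against untreated, and 3 higher and 2 lower both at 4 h against untreated and at 4 h against 1 h. YKT61 (AT5G58060), a SNARE, was at 10.33 and 10.51 untreated, 10.15 and 10.19 at 1 h, and 10.48 and 10.43 at 4 h. Its 1 h arrays were thus the lowest, by -0.25 against untreated (SE 0.22, limma adjusted p = 0.940), and 4 h was above 1 h by 0.29 (SE 0.22, limma adjusted p = 0.726). EXO84B (AT5G49830), a further exocyst subunit, differed by -0.16 at 1 h against untreated (SE 0.23, limma adjusted p = 0.968) and by 0.17 at 4 h against 1 h (SE 0.23, limma adjusted p = 0.858). KEU (AT1G12360), the KEULE protein of the same class as SEC1B that acts in cell plate formation, differed from untreated by 0.21 at 4 h (SE 0.23, limma adjusted p = 0.850), and ECHIDNA, of the trans-Golgi network, by -0.10 (SE 0.24, limma adjusted p = 0.936). ATYKT62 was below background on all arrays.

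The identity of the cells could be checked only in part, since SMB, BRN1, BRN2 and FEZ have no probe set named alone. The root cap genes scpl48 and AT1G65570 were above background on every array, at 11.21 to 12.33 and 9.33 to 10.63. Among markers of other root cells, EXPA7, AT1G62500 and AGL42 were below background on all 6 arrays, EXPA18 and AT1G09750 above it on 2 and GSO1 on 3. Other listed markers of these cell types, and all those listed for the stele, were not found under a probe set named alone and were not examined. The root cap genes differed from untreated in unlike ways, and neither passed in any comparison. AT1G65570 was higher by 1.15 at 1 h (SE 0.26, limma adjusted p = 0.759, groups not overlapping) and by 0.27 at 4 h (SE 0.26, limma adjusted p = 0.823). The difference of scpl48 was 0.23 at 1 h (SE 0.24, limma adjusted p = 0.945) and -0.62 at 4 h (SE 0.24, limma adjusted p = 0.518). Between 4 h and 1 h both were lower at 4 h, scpl48 by -0.85 (SE 0.24, limma adjusted p = 0.410) and AT1G65570 by -0.88 (SE 0.26, limma adjusted p = 0.414). The trafficking genes had medians of -0.07, -0.07 and -0.04 in the 3 comparisons, and the part of the root cap genes in them was not tested.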

How the data were processed

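RNA of 6 samples was labelled in 2 cycles and hybridised to 1 ATH1 array each, per the labels. The deposited table holds 1 linear intensity per probe set and array. The software and genome build behind it are not given in the sources used here. The mean of each column after trimming 2% at each end was 250.03, so the authors had scaled the columns alike before they deposited them. Of its rows, 64 are controls and 22746 were tested.

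From there log2(intensity + 16) was quantile normalized, and 1 mean per group was fitted with limma 3.58.1 in R 4.3.3 to all 6 arrays, which share 1 estimate of the spread. P-values are two-sided, measure the spread between arrays and are adjusted by Benjamini-Hochberg over all probe sets. Fold changes refer to the log2(intensity + 16) scale and understate changes of dim genes. The number of arrays limits the precision. A member had 1 probe set, so the choice by highest mean decided nothing.

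Named in each comparison were genes past the threshold, the 8 with the smallest unadjusted p, and the highest and lowest difference of each family, among genes above background on both arrays of at least 1 of the 2 groups. Members, lists and the background rule were chosen with earlier results of these data known. Genes were named through a platform annotation and RefSeq's TAIR10.1 table. No sequences were used.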

Additional observations from a re-analysis of the deposited data

How the results depend on the processing

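Under 14 alternatives (2 pseudocounts, 2 other scalings, a prior variance that follows the signal, a filter on dim probe sets, array weights, the replicate block and leaving out each array) 0 trafficking genes passed in any comparison, with smallest adjusted p from 0.366 to 1 at 1 h, 0.333 to 0.947 at 4 h and 0.237 to 0.919 at 4 h against 1 h. The 0 of 30 says little about these genes, since few of all probe sets passed under any setting. This was 0 at 1 h against untreated and at most 123 in the other comparisons. The number of all probe sets called did depend on the setting in those comparisons. At 4 h against untreated it was 1, and 0 with a pseudocount of 1, 108 with 64, 123 with the prior variance that follows the signal, 8 with the filter (above background on 2 or more arrays, which kept 26 of the 30 genes) and 0 without any 1 array. At 4 h against 1 h it was 5, and 0 with a pseudocount of 1, 42 with 64, 53 with that prior variance, 17 with the filter, 8 with array weights and 0 without any 1 array. The median of the trafficking genes at 1 h was -0.21 with median centring and between -0.11 and 0.016 without 1 array. At 4 h against 1 h it was 0.046 with median centring and between -0.045 and 0.035 without 1 array. For 4 h against untreated it was -0.15 with median centring and between -0.07 and -0.04 without 1 array. The cause was not tested.

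Of the named genes, VPS46.2 and PRA1.B1 turned to -0.041 and -0.045 at 1 h with median centring, which gives all probe sets a median of -0.10. Without 1 array, 6 differences changed sign: PRA1.B1 (-0.051 to 0.35) and SEC1B (-0.079 to 0.46) at 1 h, SEC15B (-0.22 to 0.0036) and VPS2.2 (-0.98 to 0.14) at 4 h, and RAB6A (-0.22 to 0.024) and SEC15A (-0.54 to 0.035) at 4 h against 1 h.

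The differences between replicates 2 and 1 gave little sign of pairing by replicate number. They correlated over probe sets with r = 0.12 between 1 h and untreated, -0.02 between 4 h and untreated and -0.04 between 4 h and 1 h. The untreated and 1 h arrays did not group by treatment, however. Levels on replicate 2 of untreated and of 1 h correlated with r = 0.969, against 0.957 between untreated replicates and 0.958 between 1 h replicates. The 4 h replicates correlated with r = 0.972. The cause was not tested. With the replicate block, 0 probe sets passed at 1 h, 0 at 4 h and 5 at 4 h against 1 h. The mean over all probe sets of a gene was not run, since each gene had 1.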
